A study of Mus musculus with 2 samples.

Results

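The genes described here are 8 members of the interleukin 1 system and of the inflammasome, namely Il1b, Il18, Il1rn, Il1r1, Il1rap, Il1r2, Casp1 and Pycard. They were taken by gene symbol from the annotation of the array, which gave 13 probe sets for these 8 genes out of 22690 probe sets and 12393 genes. None of the 13 carried a second gene symbol. The values come from 2 arrays, 1 of DBA/1 and 1 of C57BL/6 mice, each hybridised with RNA of CD4+ T cells taken from the spleen by magnetic sorting. Both strains had been immunised with glucose-6-phosphate isomerase (GPI), a glycolytic enzyme used here to induce arthritis, and both were sampled on day 7. DBA/1 is the strain that develops the arthritis and C57BL/6 the strain that resists it, and the series set out to find molecules highly expressed on the T cells of the susceptible one. The sources used here do not give the number, age or sex of the mice or say whether cells were pooled, and neither strain has an array without immunisation.

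Interleukin 1 beta and interleukin 18 are cytokines made as inactive precursors. An inflammasome is an assembly in which a sensor protein, through the adaptor ASC (the product of Pycard), brings together molecules of caspase-1 (Casp1), which then cuts both precursors into their active forms. Interleukin 1 signals through a receptor chain (Il1r1) paired with an accessory chain (Il1rap). Il1r2 encodes a decoy receptor that binds the cytokine without signalling, and Il1rn encodes an antagonist that occupies the signalling receptor. Monocytes, macrophages, dendritic cells and neutrophils are the usual producers of interleukin 1 beta, while T helper cells respond to it, among them those that make interleukin 17.

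The upstream sequences of the 4 genes of cytokine production and processing that were measured on both arrays, Il1b, Il18, Casp1 and Pycard, are shown because these genes were all higher in DBA/1 and the stretch before the start site is where the transcription machinery assembles. They are from RefSeq, build GRCm38.p6 of C57BL/6J, and the DBA/1 sequence was not read. A window was found for all 8 members. Each stretch runs 5′ to 3′ on the strand of the gene, from 250 to 26 bases before the annotated start. Capitals mark matches on either strand to the TATA box core TATAAA, to AGGAAGT (the core bound by PU.1 and other Ets factors), to TGANTCA (AP-1) and to TTCNNNGAA (STAT factors).
Il1b, chr2:129371165-129371389, minus strand: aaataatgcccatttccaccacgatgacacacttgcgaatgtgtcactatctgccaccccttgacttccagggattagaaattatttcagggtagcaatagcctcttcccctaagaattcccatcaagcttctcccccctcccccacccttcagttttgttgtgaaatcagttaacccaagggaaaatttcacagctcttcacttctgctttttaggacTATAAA
Il18, chr9:50554450-50554674, plus strand: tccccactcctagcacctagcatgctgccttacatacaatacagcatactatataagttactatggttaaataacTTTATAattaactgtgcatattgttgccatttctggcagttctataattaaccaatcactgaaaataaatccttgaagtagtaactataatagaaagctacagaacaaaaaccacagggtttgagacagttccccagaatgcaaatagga
Casp1, chr9:5298267-5298491, plus strand: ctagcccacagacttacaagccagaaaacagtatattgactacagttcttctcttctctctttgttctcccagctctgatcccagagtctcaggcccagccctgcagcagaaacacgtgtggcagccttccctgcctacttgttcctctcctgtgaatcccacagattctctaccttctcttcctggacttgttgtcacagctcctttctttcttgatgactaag
Pycard, chr7:127993893-127994117, minus strand: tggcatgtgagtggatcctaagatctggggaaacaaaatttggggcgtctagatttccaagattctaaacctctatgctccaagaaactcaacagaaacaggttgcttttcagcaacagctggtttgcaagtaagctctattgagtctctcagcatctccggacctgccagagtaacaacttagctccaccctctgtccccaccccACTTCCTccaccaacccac

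The window of Il1b held TATAAA from 31 to 26 bases before the start, and that of Il18 held its reverse complement from 175 to 170 bases before it. The window of Pycard held the reverse complement of AGGAAGT from 44 to 38 bases before the start. None of the 4 motifs was found in the Casp1 window. Over 32851 windows of the same length and place, TATAAA was present in 10.6%, AGGAAGT in 6.71%, TGANTCA in 6.24% and TTCNNNGAA in 6.38%. A match is a description of the letters and not of binding.

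The deposited values are signals on a linear scale, and a signal was read only above the median of its array, 37.6 on the DBA/1 array and 38.04 on the C57BL/6 array, which served as a floor. Of the 13 probe sets, 5 were above the floor on both arrays (Il1b, Il18, Casp1, Il1r2 and 1 of Pycard), 2 on the DBA/1 array only (Il1r1 and 1 of Il1rap) and 6 on neither. Each gene is represented below by the probe set of highest mean log2 signal, so that 7 of the 8 members had a value and Il1rn had none. Each strain has a single array, so no difference carries a test or a replicate error. A gene with several probe sets offers the only repeat, and over 2325 genes with such a pair the error of a log2 ratio was 0.31 (SD of the difference, 0.43, divided for a single probe set), which covers probes and not mice, sorts or labelling.

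All 5 members above the floor on both arrays were higher in DBA/1, from 1.79-fold for Pycard to 3.13-fold for Il1b. Over all genes above the floor on both arrays 61.1% were higher in DBA/1. At a 2-fold difference 3 members were higher in DBA/1 (Il1b, Il1r2 and Il18), of 7 with a value, and none was higher in C57BL/6. The background was 3.84% of 6936 genes in the DBA/1 direction and 1.90% in the C57BL/6 direction. The median log2 ratio of the 7 members was 0.95, against 0.10 over all genes with a value. That median includes Il1r1 and Il1rap, which had a value only through DBA/1 and so could not have been lower there. Markers of neutrophils and of monocytes and macrophages were higher in DBA/1 on the same arrays (median log2 ratios of 1.79 and 0.86), and their part in the values of the members was not tested. In RNA of a bulk sample, more cells of a type and more RNA per cell cannot be told apart.

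**Figure D1:**
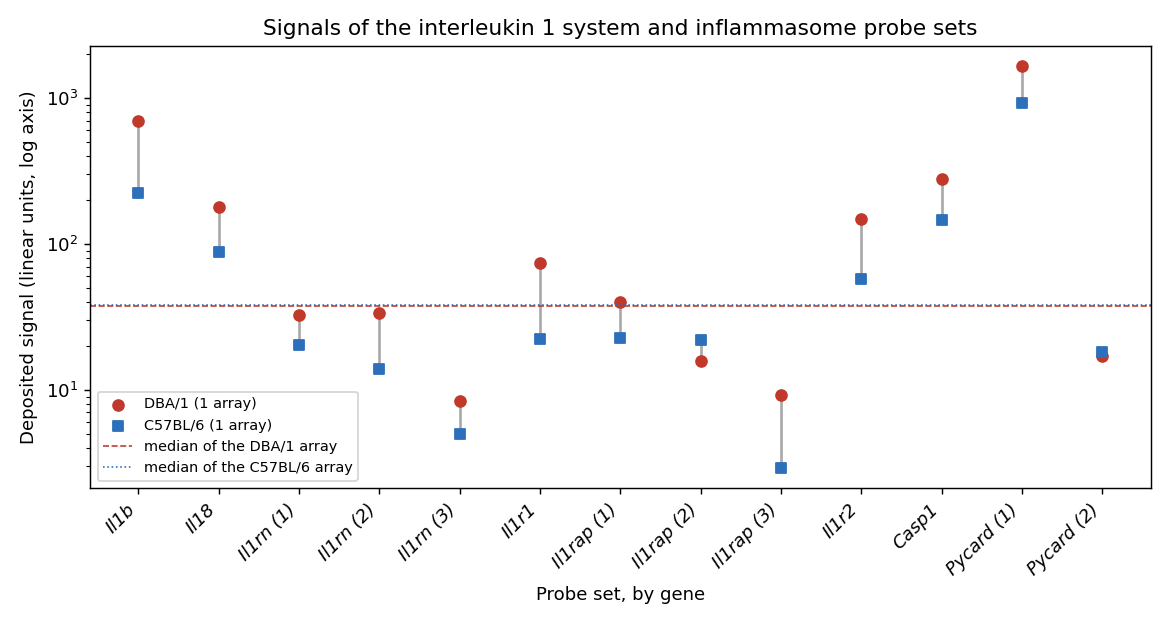
Deposited signal (log axis) of each of the 13 probe sets on the DBA/1 array (circles) and the C57BL/6 array (squares), with the array medians as horizontal lines; probe sets of 1 gene are numbered, the first being the one used for the gene. The 5 pairs that lie wholly above the lines, among them Il1b at 700.0 and 224, all have the DBA/1 signal on top, and no probe set of Il1rn reaches the lines.

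Among the ligands, Il1b showed the larger difference. Its probe set read 700.0 in DBA/1 against 224 in C57BL/6, a 3.13-fold difference (log2 ratio 1.64), and both signals were well clear of the floor, at 18.6 and 5.89 times its value. Of the genes above the floor on both arrays, 0.703% were 3-fold or more higher in DBA/1. Il1b was the only member among them to reach that size. Il18, whose product drives interferon gamma production together with interleukin 12, read 178 in DBA/1 against 87.7 in C57BL/6. The difference was 2.03-fold (log2 ratio 1.02), which is just past the 2-fold line and fell short of it under each of 3 other scalings of the arrays (log2 ratios of 0.94 to 0.95). With a constant of 32 added to the signals the log2 ratio was 0.81. The log2 ratio of Il1b exceeded that of Il18 by 0.62, and a difference of that size lies outside 1 SD (0.43) of the differences between paired probe sets of 1 gene. That SD gives no test of a difference between different genes.

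The antagonist Il1rn was not measurable on either array. Its 3 probe sets read 32.3, 33.5 and 8.42 in DBA/1 and 20.4, 13.9 and 5.01 in C57BL/6, all of them under the array medians. The balance of agonist and antagonist transcripts could therefore not be set between the strains.

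The signalling receptor was close to the lower end of what the arrays could read. Il1r1 read 73.7 in DBA/1 against 22.5 in C57BL/6. The C57BL/6 signal lay under the floor, so Il1r1 was at least 1.94-fold higher in DBA/1. The log2 bound of 0.95 was 0.87 after median centring, and without a floor the log2 ratio was 1.71. The accessory chain Il1rap, which other receptors of the family also use, read 40.03 and 22.8 with the probe set of highest signal, and DBA/1 was at least 1.05-fold higher, with a log2 bound of 0.07 that was -0.01 after median centring. Its other 2 probe sets were under the floor on both arrays, at 15.8 and 9.27 in DBA/1 and 21.8 and 2.92 in C57BL/6, and their readings went in opposite directions. A strain difference in Il1rap was not resolved at these signals.

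The decoy receptor Il1r2 was read on both arrays. It gave 147 in DBA/1 against 57.8 in C57BL/6, a 2.55-fold difference (log2 ratio 1.35), with the C57BL/6 signal only 1.52 times the floor. Adding a constant of 32 to the signals, which damps differences at low signal, brought its log2 ratio to 0.999, just under 2-fold. Decoy receptor and ligand thus pointed the same way. The log2 ratio of Il1b exceeded that of Il1r2 by 0.29, which is within 1 SD of the differences between paired probe sets. The 2 measured ligands had a median log2 ratio of 1.33, the decoy receptor 1.35, and the 2 signalling chains 0.51. The last value rests on both chains having a C57BL/6 signal at the floor, and so is a lower bound and does not place the signalling chains under the ligands.

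The genes of the processing machinery were both higher in DBA/1 by less than 2-fold. Pycard, encoding the adaptor ASC, read 1655 in DBA/1 against 926 in C57BL/6, a 1.79-fold difference (log2 ratio 0.84). Its other probe set read 17.01 and 18.2, under the floor on both arrays, and gave no second estimate. Casp1 read 278 in DBA/1 against 146 in C57BL/6, a 1.90-fold difference (log2 ratio 0.93), just short of 2-fold. Both stayed higher in DBA/1 under each of the other scalings of the arrays and with a constant of 32 added to the signals. The log2 ratios were then from 0.68 to 0.82 for Pycard and from 0.80 to 0.84 for Casp1. The remaining treatments could not change the ratio of either gene.

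**Figure D2:**
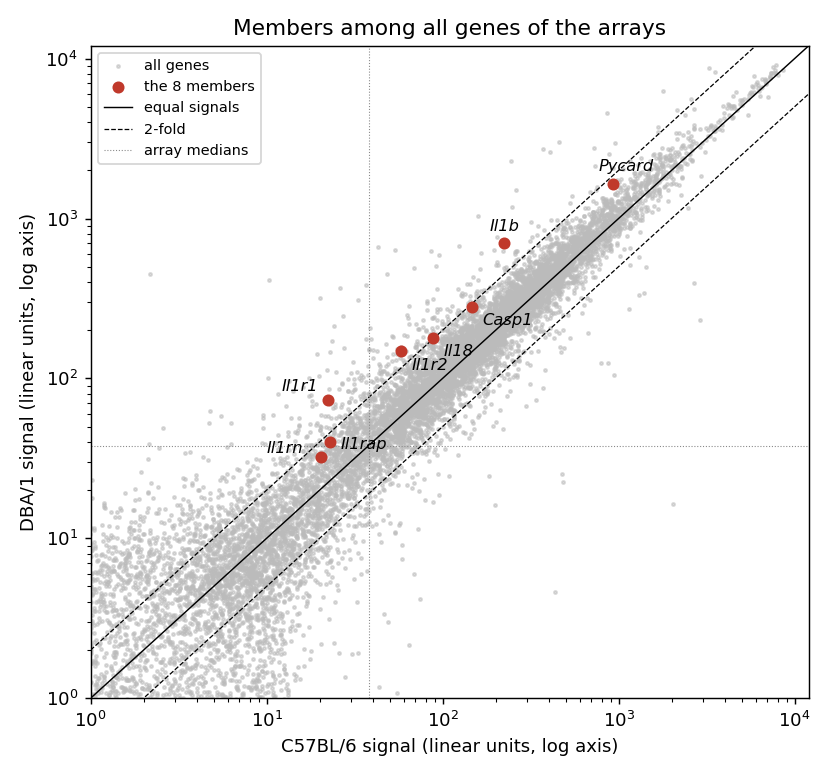
DBA/1 signal against C57BL/6 signal (both axes log) for every gene, by its probe set of highest mean log2 signal, with the 8 members in red, the line of equal signals, the 2-fold lines and the array medians. The members lie on the DBA/1 side of the line of equal signals; Il1b stands farthest from it among those above both medians, and Il1rn lies below both medians.

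**Figure D3:**
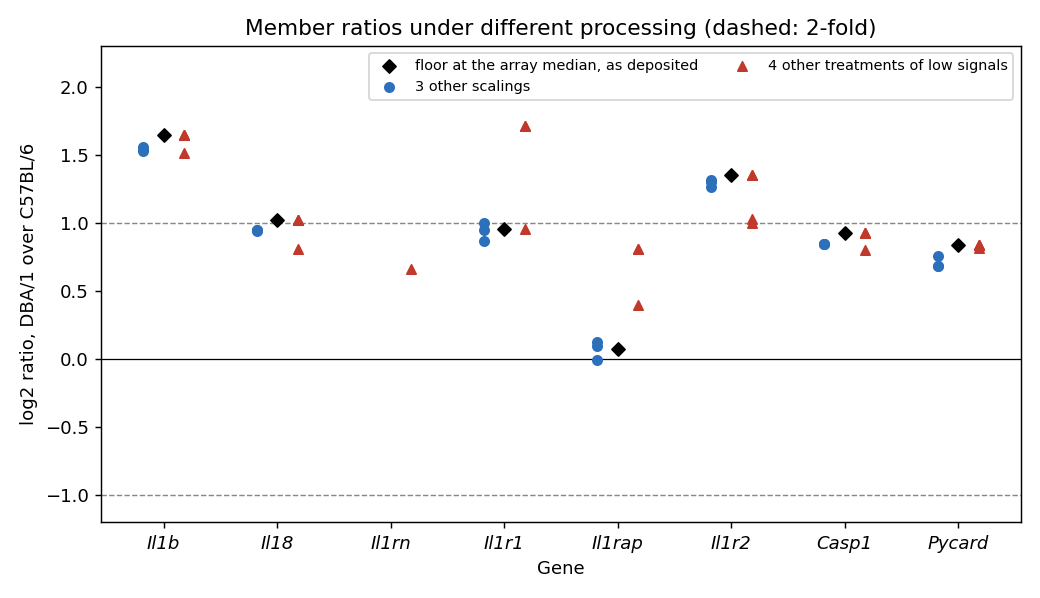
log2 ratio of each member under the values as deposited with a floor at the array median (diamonds), 3 other scalings (circles) and 4 other treatments of low signals (triangles); dashed lines mark 2-fold. Il1b stays between 1.52 and 1.64 and Casp1 and Pycard stay below 2-fold, while Il1r1 moves from 0.95 to 1.71 when its C57BL/6 signal is not floored; Il1rn has a value only with the floor at percentile 25.

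The rest of the pathway, 78 genes on 5 lists, was examined in the same way. Of these, 58 had a probe set and 40 a signal above the floor on at least 1 array. At 2-fold, 2 of the 40 were higher in DBA/1 (Casp4 and Lcn2) and none in C57BL/6, against backgrounds of 3.84% and 1.90%, and the median log2 ratio was 0.06 against 0.10 over all genes. Genes of the pathway beyond the 8 members were thus as a group close to the background.

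Other ligands of the family were not read. Il1a, Il33, Il1f10 and the soluble interleukin 18 inhibitor Il18bp had all their signals under the floor. Of the other receptors, Il18r1, the ligand-binding chain for interleukin 18, read 751 in DBA/1 against 389 in C57BL/6, a 1.93-fold difference. Its partner chain Il18rap read 68.6 and 49.2 (log2 ratio 0.48). Sigirr, an inhibitory receptor of the family, read 276 on both arrays. The cytokine Il18 and its binding chain were thus both higher in DBA/1, by 2.03-fold and 1.93-fold.

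Among 13 readable inflammasome sensors and effectors the median log2 ratio was 0.20, with 7 higher in DBA/1 and 6 higher in C57BL/6. Of the 6, Naip5 and Naip6 had a value only through C57BL/6 and so could not have been higher in DBA/1. Casp4, the mouse inflammatory caspase also called caspase-11, which senses bacterial lipopolysaccharide inside the cell, read 271 in DBA/1 against 96.1 in C57BL/6. This 2.82-fold difference (log2 ratio 1.50) was larger than that of Casp1. It stayed beyond 2-fold under 3 other scalings and with a constant of 32 added (log2 ratios of 1.24 to 1.42). The remaining treatments could not change it. Nlrx1, a mitochondrial member of the sensor family, was 1.78-fold higher in DBA/1, with its C57BL/6 signal of 38.4 at the edge of the floor. Mefv, encoding pyrin, read 191 and 109, a 1.75-fold difference. Nlrp3, the sensor most often studied with these cytokines, read 35.2 and 25.7, under the floor on both arrays. The DNA sensor Aim2 read 56.9 in DBA/1 against 77.4 in C57BL/6 and was the member of this list, among those above the floor on both arrays, with the largest difference towards C57BL/6 (log2 ratio -0.44); it was named after its values were seen.

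In the signalling relay below the receptor no gene differed by 2-fold. All 16 readable genes were above the floor on both arrays, 8 were higher in each strain, and the median log2 ratio was -0.01. By the probe set used for each gene, the largest differences were those of Tab3 (0.55), a binding partner of the kinase TAK1, of the stress kinase Mapk14 (0.45, with other probe sets at 0.36 and 0.08) and of the adaptor Myd88 (0.41). Other probe sets gave larger values for Irak1, Ikbkb and Ikbkg. The receptor-associated kinase Irak1 lay at -0.17 with the probe set used and at 0.96 with another (225 against 116). The kinase Ikbkb, which activates NF-kappaB, lay at -0.07 with the probe set used and at -0.74 with another (137 against 229). Ikbkg lay at 0.22 with the probe set used and at -0.66 with another (36.6, under the floor, against 59.4). The probe sets of these genes thus disagree. Myd88, which carries the signal of interleukin 1, interleukin 18 and most toll-like receptors, read 472 in DBA/1 against 354 in C57BL/6.

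Genes that interleukin 1 is known to induce went both ways. Of 17 listed, 8 were readable, 5 higher in DBA/1 and 3 higher in C57BL/6, and the median log2 ratio was 0.06. Among the 5, Il17a had a value only through DBA/1. Lcn2, encoding lipocalin 2, read 3016 and 462, a 6.53-fold difference, but it is also a granule gene of neutrophils and stands on that marker list too. Ptgs2, encoding the inducible cyclooxygenase, was 1.53-fold higher in DBA/1 (125 against 82.0), and Tnfaip3, an inhibitor of NF-kappaB, was 1.29-fold higher in C57BL/6 (706 against 546). Il6, Cxcl1, Cxcl2, Csf2, Csf3, Ccl2 and Saa3 were under the floor on both arrays.

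**Figure D4:**
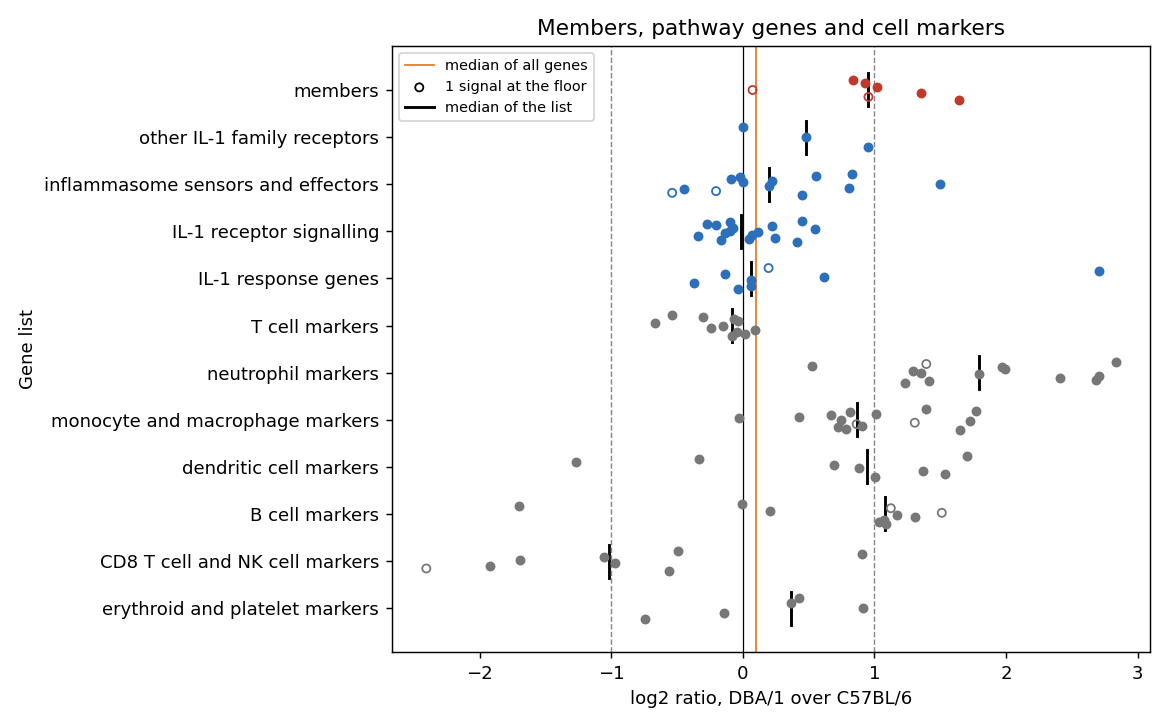
log2 ratio of DBA/1 over C57BL/6 for each readable gene of the 8 members (red), the other pathway lists (blue) and the cell marker lists (grey); open points have 1 signal at the floor, black bars are medians, the orange line is the median of all genes and the dashed lines mark 2-fold. The members lie at 0.07 to 1.64, the signalling genes around 0, and the neutrophil markers at 0.53 to 2.84.

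Markers of cells that commonly produce interleukin 1 differed between the arrays in the same direction as the members. Of 14 neutrophil markers with a probe set 13 were readable, and each of these was higher in DBA/1. The median log2 ratio was 1.79, 12 markers passed 2-fold, and the summed signal was 34982 in DBA/1 against 10771 in C57BL/6. Cxcr2 was under the floor on both arrays, as were Fcgr1 and Marco of the next list. The monocyte and macrophage markers had a median of 0.86, with 14 of 15 higher in DBA/1 and summed signals of 8408 and 4404, and the dendritic cell markers a median of 0.94, with 6 of 8 higher and summed signals of 5607 and 3114. The B cell markers had a median of 1.08, with 8 of 10 higher and sums of 5089 and 4287. Most of each B cell sum came from Ighm, at 3304 and 3326. Csf3r, Cd14, Itgam, Blk and Fcer2a had a value only through DBA/1. Their direction in these counts was thus set by the floor. Fscn1 and Cst3 led the dendritic cell list (3.25-fold and 2.90-fold higher in DBA/1), while Ccr9 was 2.40-fold lower and Irf8 1.26-fold lower. A second probe set of Fscn1 gave a log2 ratio of 0.85, with its C57BL/6 signal at the floor. Of the B cell list Blk was at least 2.85-fold higher and Cd72 3.24-fold lower. The log2 ratios of Il1b (1.64), Il1r2 (1.35) and Il18 (1.02) lay within the range of the neutrophil markers, 0.53 to 2.84. They also lay within those of the monocyte and macrophage markers, -0.03 to 1.77, and of the dendritic cell markers, -1.26 to 1.70. Those of Il1r2 and Il18 lay within the range of the B cell markers too, -1.70 to 1.51. Such wide ranges do not set 1 cell type apart, and the part of any cell type in the member values was not tested. Cd177 and Lcn2 were the highest of the neutrophil list (7.14-fold and 6.53-fold), and Hmox1 and Fcgr3 the highest of the monocyte and macrophage list (3.41-fold and 3.31-fold). The C57BL/6 signal of Fcgr3, 40.3, was at the edge of the floor, and its log2 ratio of 1.73 became 0.88 with the floor at percentile 60.

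T cell markers, which define the labelled cell type, were present on both arrays. All 11 with a probe set were above the floor, Cd4 reading 913 in DBA/1 against 857 in C57BL/6, and their median log2 ratio was -0.08, with the largest differences at Zap70 (-0.67) and Thy1 (-0.54). The CD8 T cell and NK cell markers were lower in DBA/1, with a median of -1.01, 7 of 8 lower and summed signals of 731 and 1636, led by Cd8b1 (at least 5.30-fold) and Nkg7 (3.80-fold). Restricted to markers whose higher signal reached percentile 75 of its array, the median was -1.81. Cd8b1, Nkg7 and Klrd1 passed this limit only through C57BL/6, where they are high. Gzmb, the marker higher in DBA/1 (127 against 67.8), did not pass. The limit thus favoured the C57BL/6 side, and that median is no second estimate. In the count over all 8, Cd8b1 also had a value only through C57BL/6. Erythroid and platelet markers had a median of 0.37 over 5 readable genes, from -0.74 for Hbb-b2 to 0.91 for Car1, but the direction was not stable. A floor at percentile 25 turned the median to -0.14, a floor at percentile 60 brought it to 0.06, and a second probe set of Hbb-b2 gave -0.06, with its DBA/1 signal at the floor.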

How the data were processed

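The deposited table holds intensity values of 22690 probe sets on a linear scale, 1 column per array, for RNA of 2 samples (3 µg of total RNA each, labelled with biotin, per the labels' protocols). MAS5, the Affymetrix summary of probe sets into signals, stands in the submitters' processing notes without version, scaling target or detection calls. Signals were used as deposited. Of 22626 probe sets that were no controls, 20380 had 1 gene symbol in a platform annotation, 691 several and 1555 none; symbols were unchanged for the 20351 found by Entrez identifier in RefSeq (GRCm38.p6).

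Signals under the array median were set to it, a log2 ratio of DBA/1 over C57BL/6 was taken, and "at least" marks a ratio with 1 side at that floor. A difference was counted at 2-fold. Depth has no count here, and the number of arrays limits the precision. Named were all member probe sets and pathway genes at 2-fold. Also named were the 3 largest ratios of each pathway list and the 2 largest of each marker list. Further pathway genes and markers, such as Cd4, are given as examples of measured or unread genes, or because they limit a count, sum or median. Members and lists were chosen with earlier results of these data known. Ratios, counts and scalings were tested on simulated arrays whose changed probe sets had high signals and differences well past 2-fold. Low signals and differences near 2-fold were not tried. Alternatives were 3 scalings, 4 treatments of low signals, a minimum signal at percentile 75, and 2 rules for choosing probe sets (Python 3.11.15, pandas 2.3.3, statsmodels 0.14.6).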

Additional observations from a re-analysis of the deposited data

How the results depend on the processing

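No paired analysis was possible because each strain has 1 array. Under the 10 alternatives no member was 2-fold or more higher in C57BL/6, and the median log2 ratio of the members ranged from 0.82 to 1.02. The number of members at least 2-fold higher in DBA/1 was 3 as reported. It was 2 with median centring, quantile normalization, lowess and a minimum signal at percentile 75. Il18 and Casp1 passed that minimum only through DBA/1, where they are high. The limit thus favoured the DBA/1 side, and its count and median are no second estimate. It was 4 without a floor and with the floor at percentile 25. With log2(signal + 32) it was 1, and Il1b stayed past 2-fold. The share of all genes at 2-fold was not counted under the alternatives. The counts there, of members and of other pathway genes, thus have no background beside them. The median of the ligands was 1.02 with the floor at percentile 25, because Il1rn then entered at 0.66. The median of the receptors was 1.35 without a floor and 1.35 with the floor at percentile 25, since the C57BL/6 signals of Il1r1 and Il1rap were then not raised; it had no value at a minimum signal of percentile 75. Other pathway genes at least 2-fold higher in C57BL/6 numbered 3 with the floor at percentile 25 and 0 as reported. The median of all genes was 0.10, and between 0.02 and 0.13 over the alternatives. Signal over background limits Il1rn, Il1rap and Il1r1, and nothing here measures variation between mice.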
